A study of Mus musculus with 6 samples.

Results

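The non-clustered delta protocadherins are a family of cell-surface adhesion genes, and 10 of them were taken by name from a count table of 34866 rows: Pcdh1, Pcdh7, Pcdh8, Pcdh9, Pcdh10, Pcdh11x, Pcdh17, Pcdh18, Pcdh19 and Pcdh20. All 10 were found and all 10 had enough reads to be tested, among 15216 genes tested in all. The RNA came from mouse forebrain at stage E14.5. The 3 controls carried 1 floxed and 1 wild-type Sap130 allele (f/+), and the 3 libraries labelled mutant carried 1 floxed and 1 null allele (f/-). Every animal of both groups also carried Emx1-cre, whose driver recombines floxed alleles in the dorsal telencephalic lineage. The controls were expected to keep 1 intact allele there, and cells outside that lineage were not targeted by Emx1-cre in either group. By the genotypes, however, the null allele is in all cells of the mutant-labelled animals. Outside the lineage these animals would carry 1 floxed and 1 null allele, and controls 1 floxed and 1 wild-type allele. The product of Sap130, SAP130, belongs to the Sin3 co-repressor, which brings histone deacetylases to genes. Sample titles begin with SPF-539 for control replicate 1 and mutant replicate 1 and with SPF-552 for the other 4 libraries; the labels do not say what this number stands for.

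Protocadherins are single-pass membrane proteins whose extracellular cadherin repeats bind the same protein on a neighbouring cell. The delta group is encoded by single genes scattered over the genome, unlike the clustered alpha, beta and gamma protocadherins, and is split by its conserved cytoplasmic motifs into delta-1 (Pcdh1, Pcdh7, Pcdh9 and Pcdh11x) and delta-2 members (Pcdh8, Pcdh10, Pcdh17, Pcdh18 and Pcdh19), with Pcdh20 standing outside both. In the embryonic brain these genes are known for regionally restricted patterns and for roles in axon growth, cell sorting and synapse formation. Several delta-2 proteins recruit the WAVE complex, which drives branched actin assembly, and delta-1 proteins carry a motif that binds protein phosphatase 1.

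Library totals ranged from 20775583 to 25999874 estimated counts. Sap130 itself, the check of the labels, went against them: it stood at 82.8, 84.9 and 84.38 CPM in the 3 controls and at 137.7, 124.1 and 124.1 CPM in mutant replicates 1, 2 and 3 (log2 fold change 0.61, adjusted p = 0.0116 in edgeR's quasi-likelihood fit, Benjamini-Hochberg adjusted). Reads from any exon enter the gene's count, transcripts that lack a deleted exon included, and all directions are those of the libraries as labelled. The tissue label was checked with forebrain markers (Emx1, Emx2, Lhx2, Six3 and Otx2), whose summed level was 397.4 to 414.7 CPM in controls. It was 332.9, 434.8 and 444.6 CPM in mutant replicates 1 to 3, so replicate 1 alone lay below the controls. None of 6 hindbrain and midbrain markers had enough counts to be tested, and Hoxa2 and Hoxb2 were at 0 in all libraries. The labels do not say that each library is 1 animal, so p-values measure the spread between these libraries.

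The promoters of 4 members are shown because 3 of them (Pcdh19, Pcdh17 and Pcdh10) are the members whose 2 groups of libraries did not overlap, and Pcdh8 is the member whose log2 fold change is nearest 0. Each is the 250 bases upstream of the RefSeq start, from RefSeq on GRCm38.p6, written 5′ to 3′ along the gene. Capitals mark ATTGG, the reverse complement of the CCAAT box, the element that the general activator NF-Y binds. They lie at chrX:133688994-133689243 (minus strand), chr14:84443313-84443562 (plus strand), chr3:45378148-45378397 (plus strand) and chr14:79771313-79771562 (minus strand), in the order shown.
Pcdh19: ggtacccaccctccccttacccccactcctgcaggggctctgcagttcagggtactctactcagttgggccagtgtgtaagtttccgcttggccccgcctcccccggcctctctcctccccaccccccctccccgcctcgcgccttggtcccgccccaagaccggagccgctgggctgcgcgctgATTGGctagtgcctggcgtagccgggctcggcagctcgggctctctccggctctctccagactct
Pcdh17: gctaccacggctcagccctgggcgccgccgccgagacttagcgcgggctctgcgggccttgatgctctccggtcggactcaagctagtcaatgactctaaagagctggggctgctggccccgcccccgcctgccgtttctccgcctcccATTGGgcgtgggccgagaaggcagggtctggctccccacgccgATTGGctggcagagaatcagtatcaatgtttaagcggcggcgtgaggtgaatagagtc
Pcdh10: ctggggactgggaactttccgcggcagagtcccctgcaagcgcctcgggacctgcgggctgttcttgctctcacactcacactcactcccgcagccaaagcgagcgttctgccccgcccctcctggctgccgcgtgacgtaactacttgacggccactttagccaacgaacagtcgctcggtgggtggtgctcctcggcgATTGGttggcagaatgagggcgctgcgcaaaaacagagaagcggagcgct
Pcdh8: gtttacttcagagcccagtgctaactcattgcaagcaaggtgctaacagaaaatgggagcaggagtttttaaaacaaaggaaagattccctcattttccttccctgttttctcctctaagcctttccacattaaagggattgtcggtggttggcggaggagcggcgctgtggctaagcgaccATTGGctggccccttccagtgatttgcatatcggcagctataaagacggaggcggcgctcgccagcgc

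RefSeq sequences were at hand for 8 of the 10 members, all but Pcdh1 and Pcdh11x. CCAAT on either strand was found in 7 of these 8 promoters, all but that of Pcdh7, against 33.8% of 32851 promoters of the same length. The shares over all promoters given here were not matched for base composition. The GC content had a median of 52.4% over all promoters and ran from 42.4% (Pcdh20) to 69.2% (Pcdh19) in these members. In all 5 delta-2 members the reverse-complement form ATTGG began between 70 and 30 bases before the start. Its first base was at -65 in Pcdh19, -58 in Pcdh17, -50 in Pcdh10, -32 in Pcdh18 and -68 in Pcdh8, counting the last upstream base as -1. That form in that stretch was present in 5.14% of all promoters and in no other member with a sequence; Pcdh17 held a further copy at -101. The element and the stretch were chosen after the sequences were seen, and Pcdh18 and Pcdh8 hold it although their groups overlapped. The E-box forms CAGCTG and CATCTG, searched on both strands, were in none of the 8 promoters and in 13.0% and 14.4% of all promoters. TATAAA was found in 1, that of Pcdh8, between its CCAAT element and the start, and in 12.4% of all. A match of letters is not evidence of binding.

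Levels were compared between genes in CPM per kb of exon, since members differ in annotated exon length from 4.54 kb for Pcdh8 to 15.9 kb for Pcdh10, against a median of 4.44 kb over 15181 tested genes with an annotated length. Pcdh8, an activity-regulated member also called arcadlin that takes part in the uptake of N-cadherin, had the highest control mean at 14.0 ± 0.48 CPM per kb (SD, n = 3). Pcdh1, the counterpart of the frog axial protocadherin, followed at 12.9 ± 0.91 CPM per kb, and these control ranges overlapped. Pcdh19, at 11.4 ± 0.72, and Pcdh10, at 9.50 ± 0.27 CPM per kb, came next, each range clear of its neighbours in that order.

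Pcdh18 and Pcdh9, at 8.70 ± 0.72 and 8.37 ± 0.50 CPM per kb, could not be ordered in controls, nor could Pcdh17 and Pcdh7, at 6.75 ± 0.60 and 5.99 ± 0.57 CPM per kb. Pcdh11x was at 1.92 ± 0.28 and Pcdh20 at 1.49 ± 0.054 CPM per kb, the lowest of the family. In the libraries labelled mutant Pcdh19 had the highest mean, at 16.3 ± 1.8 CPM per kb, ahead of Pcdh1 at 14.1 ± 2.4 and Pcdh8 at 13.8 ± 0.42 (SD, n = 3 each), but mutant replicate 1 put Pcdh1 at 16.8, inside the range of Pcdh19. Exon length here is the union of all annotated isoforms, which understates the level of a gene expressed mainly as a short isoform.

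**Figure D1:**
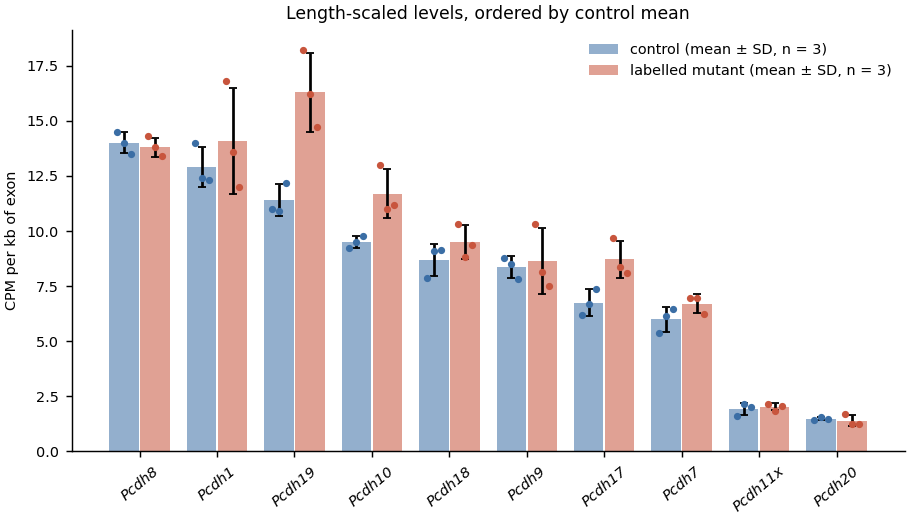
Length-scaled level (CPM per kb of exon) of each member, ordered by its control mean; bars are means, whiskers SD of 3 libraries and points single libraries. Pcdh8 and Pcdh1 lead in controls, and Pcdh19 has the highest mean in the libraries labelled mutant.

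The main comparison asked whether the labelled Sap130 genotype, which differs inside and outside the cortical lineage, goes with other levels of these members. Pcdh19, Pcdh17 and Pcdh10, 3 of the 5 delta-2 members, were higher in every library labelled mutant than in any control, by 1.44-, 1.29- and 1.24-fold. The 4 delta-1 members, Pcdh18, Pcdh8 and Pcdh20 had overlapping groups and fold changes between 0.937 and 1.12. Of the 10 members 0 passed an FDR of 0.05, against 0.138% of all 15216 genes (21 genes) by the same test, and Pcdh19 came closest. At an unadjusted p under 0.05 there were 3 members, all higher, against 5.22% of all genes higher and 9.6% in either direction. DESeq2 called 2 members at an FDR of 0.05, against 1.27% of all genes (194 genes). All mutant values lay above all control values for 3 of 10 members, against 8.17% of all genes. In bulk tissue fewer cells of a type and less RNA per cell cannot be told apart, and the same holds for more.

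**Figure D2:**
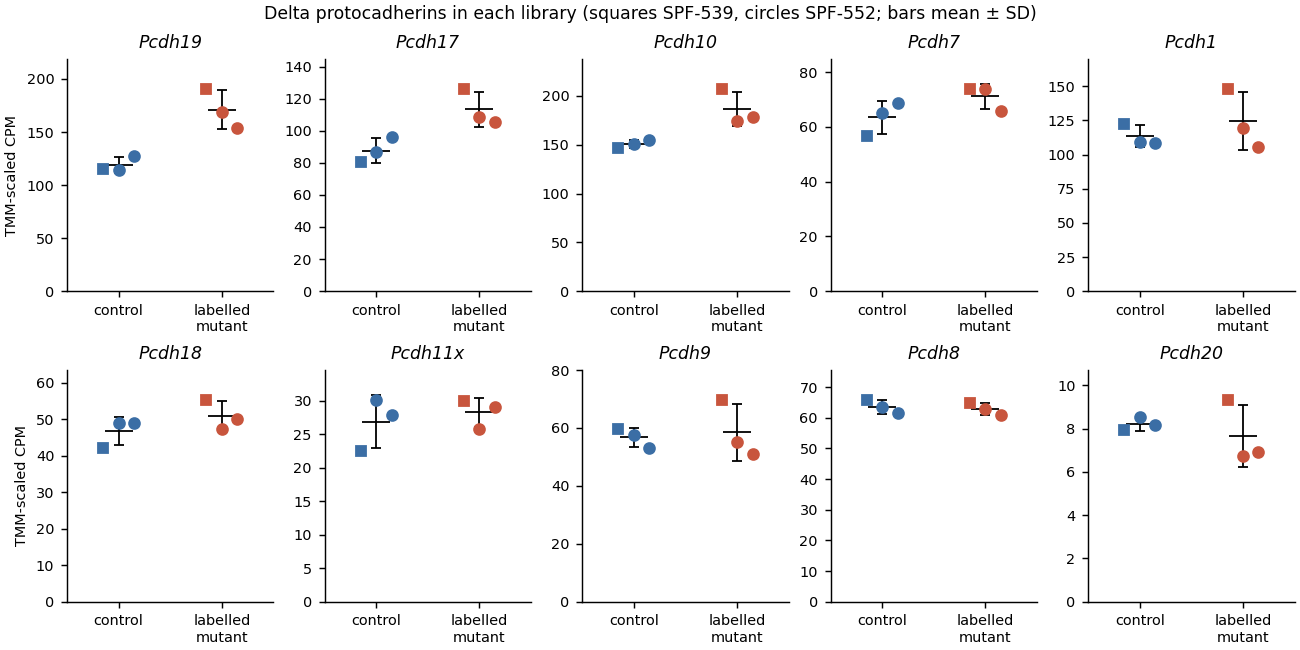
TMM-scaled CPM of the 10 members in each library, with squares for SPF-539, circles for SPF-552 and bars for the mean ± SD of 3 libraries. The groups do not overlap for Pcdh19, Pcdh17 and Pcdh10, and mutant replicate 1 is the highest library in 8 of the 10 panels.

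Pcdh19 encodes the X-linked delta-2 protocadherin whose loss in humans causes an epilepsy of heterozygous females. Its level was 114.7, 114.5 and 127.6 CPM in controls 1, 2 and 3 and 190.2, 169.1 and 153.4 CPM in mutant replicates 1 to 3. Every library labelled mutant lay above every control, and mutant replicate 1 was the highest. Means were 118.9 ± 7.51 and 170.9 ± 18.4 CPM (SD, n = 3), a log2 fold change of 0.52 (SE 0.092, adjusted p = 0.059 in edgeR's quasi-likelihood fit). The log2 ratio was 0.73 between the 2 SPF-539 libraries and 0.41 within SPF-552. By unadjusted p this was the 30th of all genes tested. The call depended on the setting: Pcdh19 passed in 9 of 19 alternatives, and its log2 fold change lay between 0.41 and 0.59 in all of them. Without mutant replicate 1 the adjusted p was 0.00516 in edgeR's quasi-likelihood fit, and without any other single library it was between 0.0638 and 0.376. In the former setting 330 of 15446 genes passed, and at most 9 genes did with any other library left out.

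Pcdh17, which gathers the WAVE complex at contacts between axons growing together in the amygdala, had 80.41, 86.75 and 95.89 CPM in controls 1, 2 and 3. It had 125.8, 108.7 and 105.4 CPM in mutant replicates 1 to 3, so the nearest libraries of the groups, control replicate 3 and mutant replicate 3, were 95.89 and 105.4 CPM. Its log2 fold change was 0.37 (SE 0.094, adjusted p = 0.19 in edgeR's quasi-likelihood fit). The log2 ratio was 0.64 in SPF-539 and 0.23 in SPF-552, so the SPF-552 libraries alone gave a value over 1.5 times smaller than the pooled one.

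Pcdh10, also known as OL-protocadherin and needed in mice for the growth of striatal axons and for fibres passing through the ventral telencephalon, had 146.8, 150.9 and 155.3 CPM in controls 1, 2 and 3. In mutant replicates 1 to 3 it had 206.7, 174.5 and 178.3 CPM. The controls were tightly grouped and all below the lowest of the other 3 libraries. Its log2 fold change was 0.30 (SE 0.084, adjusted p = 0.225 in edgeR's quasi-likelihood fit), with log2 ratios of 0.49 in SPF-539 and 0.20 in SPF-552. With a per-library correction for exon length the log2 fold change was 0.20, a fall of over 1.5 times, and this member has the longest annotated exons of the family. As for Pcdh7, Pcdh8 and Pcdh19, an annotated antisense gene overlaps its exons (1700027H10Rik for Pcdh10), and the kit named in the labels marks no strand. None of these antisense genes has a row in the count table. For each of Pcdh19, Pcdh17 and Pcdh10 an exact permutation test (two-sided) gave p = 0.1, and 3 libraries against 3 cannot give less. Groups that do not overlap always give this value, so it adds nothing to the separation already described. For the other members the same test gave p from 0.2 (Pcdh7) to 0.9 (Pcdh9).

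In the other delta-2 members the groups overlapped. Pcdh8 had 65.8, 63.36 and 61.46 CPM in controls and 64.75, 62.72 and 60.92 CPM in mutant replicates 1 to 3, a log2 fold change of -0.02 (SE 0.078). The groups overlapped, with an SD of 2.18 CPM in controls and 1.92 CPM in the other group. Pcdh18, whose protein binds the reelin pathway adaptor Dab1, had 42.24, 48.88 and 48.97 CPM in controls and 55.31, 47.3 and 50.19 CPM in mutant replicates 1 to 3. Its log2 fold change of 0.13 (SE 0.096, adjusted p = 0.733 in edgeR's quasi-likelihood fit) had no counterpart in SPF-552, where the log2 ratio was -0.006, against 0.39 in SPF-539. Control replicate 1 was the lowest and mutant replicate 1 the highest library.

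The delta-1 members all had overlapping groups, with log2 fold changes from 0.05 to 0.16 and a smallest adjusted p of 0.626 in edgeR's quasi-likelihood fit. Pcdh7, whose frog counterpart NF-protocadherin acts in the growth of retinal axons, had 56.85, 65.03 and 68.66 CPM in controls and 73.75, 73.75 and 65.99 CPM in mutant replicates 1 to 3. Only mutant replicate 3 fell inside the control range (log2 fold change 0.16, SE 0.093). Pcdh1 had 122.7, 109.5 and 108.3 CPM in controls and 147.8, 119.7 and 105.8 CPM in mutant replicates 1 to 3. Its lowest and its highest library were both labelled mutant.

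Pcdh9, one of the longest genes of the set with a span of 877.3 kb, had 59.61, 57.61 and 53.02 CPM in controls and 69.68, 55.13 and 50.87 CPM in mutant replicates 1 to 3. As for Pcdh1, the libraries labelled mutant spanned both extremes. Pcdh11x, the second X-linked member, had 22.44, 30.1 and 27.92 CPM in controls and 29.92, 25.78 and 29.01 CPM in mutant replicates 1 to 3. Control replicate 1 was its lowest library and control replicate 2 its highest. Pcdh20 was the scarcest member, with 141 to 238 estimated counts a library. It had 7.921, 8.512 and 8.148 CPM in controls and 9.322, 6.731 and 6.924 CPM in mutant replicates 1 to 3. Mutant replicate 1 was above all controls and the other 2 were below all of them.

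**Figure D3:**
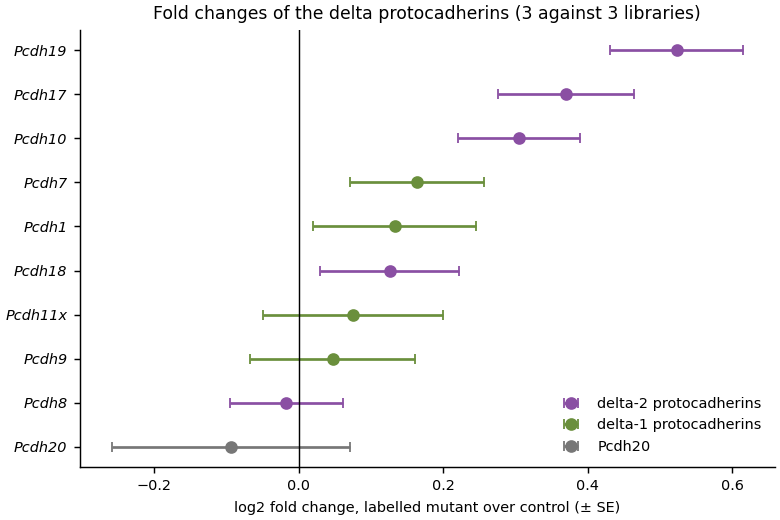
Log2 fold change (labelled mutant over control) of each member with its standard error from edgeR's quasi-likelihood fit on 3 against 3 libraries, coloured by subfamily. Pcdh19, Pcdh17 and Pcdh10 lie at 0.52, 0.37 and 0.30, and the other 7 between -0.09 and 0.16.

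The median log2 fold change was 0.13 over the 10 members, 0.10 over the 4 delta-1 and 0.30 over the 5 delta-2 members, against a median of -0.0003 over all genes tested. These values describe the lists, and no test of the difference between subfamilies was made. Without mutant replicate 1 the median of the 10 was 0.05, and within SPF-552 alone it was 0.02. All 10 members have longer annotated exons than the median gene tested. With a per-library correction for exon length the median was 0.09 over the 10, 0.05 over delta-1 and 0.20 over delta-2 members. All members together summed to 719.5, 735.2 and 755.3 CPM in controls 1, 2 and 3 and to 973.1, 843.4 and 806.8 CPM in mutant replicates 1 to 3. Of the difference between the group means, 138 CPM, Pcdh19, Pcdh17 and Pcdh10 made up 82.0%. The other 7 summed to 379.0 ± 3.50 CPM in controls and to 403.8 ± 41.9 CPM in the mutant-labelled libraries (SD, n = 3), where mutant replicate 1 was at 450.6 and replicates 2 and 3 at 391.1 and 369.7 CPM.

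Mutant replicate 1 was the highest of the 6 libraries for 8 of 10 members, against 25.7% of all genes tested, a share not matched for exon length. All 10 members stood above their control mean in that library, and 6 of 10 did in each of mutant replicates 2 and 3. Median deviations from the control mean, in log2 CPM, were 0.27, 0.05 and 0.08 in mutant replicates 1 to 3. For the delta-2 members they were 0.45, 0.21 and 0.24, and for the delta-1 members 0.26, 0.02 and -0.02.

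**Figure D4:**
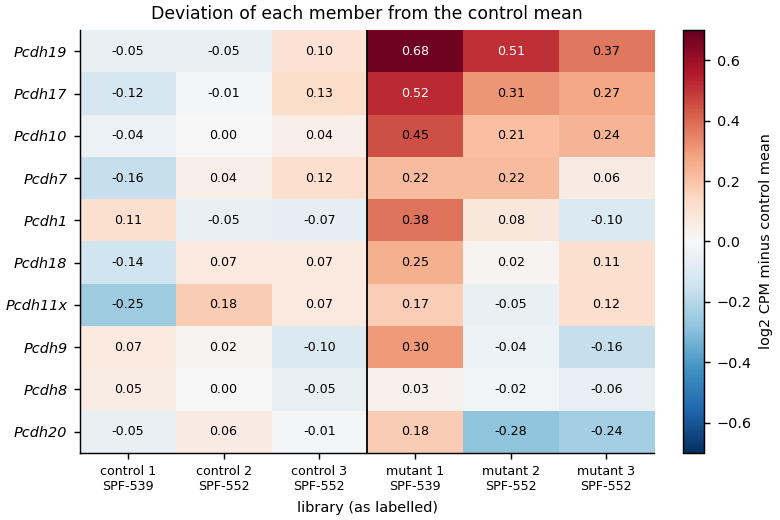
Log2 CPM of each member minus its control mean in each of the 6 libraries, labelled by replicate and title number. Pcdh19, Pcdh17 and Pcdh10 are between 0.21 and 0.68 in the 3 libraries labelled mutant, and all 10 members lie above 0 in mutant replicate 1.

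Ratios between members within a library do not depend on the library's scaling factor, and 4 pairs were formed after the values were seen. They carry no correction for exon length, in which the members of each pair differ. With such a correction per library the log2 fold changes of Pcdh19, Pcdh17 and Pcdh10 were 0.46, 0.28 and 0.20. Those of Pcdh18, Pcdh8 and Pcdh11x were then 0.12, -0.01 and -0.01. The ratio of Pcdh19 to Pcdh8 was 1.74, 1.81 and 2.08 in controls 1, 2 and 3 and 2.94, 2.70 and 2.52 in mutant replicates 1 to 3. The ratio of Pcdh17 to Pcdh8, both on chromosome 14, was 1.22, 1.37 and 1.56 in controls and 1.94, 1.73 and 1.73 in mutant replicates 1 to 3. Neither set of ratios overlapped between the groups.

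The same held for the pair on the X chromosome, where the ratio of Pcdh19 to Pcdh11x was 5.11, 3.80 and 4.57 in controls and 6.35, 6.56 and 5.29 in mutant replicates 1 to 3. It also held for the chromosome 3 pair of Pcdh10 and Pcdh18, at 3.48, 3.09 and 3.17 in controls and 3.74, 3.69 and 3.55 in mutant replicates 1 to 3. Exact permutation tests (two-sided) gave p = 0.1 for each, the lower limit of this design, and pairs were picked for the difference of their members, so this is a description.

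Members that share a chromosome had different values. Of the 10, 4 lie on chromosome 14 (GRCm38): Pcdh8 at 79766775 to 79771312, Pcdh17 at 84443563 to 84539002, Pcdh20 at 88464743 to 88471396 and Pcdh9 at 93013410 to 93890679. Their log2 fold changes were -0.02, 0.37, -0.09 and 0.05 in this order. Pcdh10 (45378398 to 45435623) and Pcdh18 (49743296 to 49757325) share chromosome 3 with values of 0.30 and 0.13. Pcdh19 (133582860 to 133688987) and Pcdh11x (120290259 to 120910619) share the X chromosome with values of 0.52 and 0.08, and Pcdh7 and Pcdh1 lie on chromosomes 5 and 18. Y-linked genes were low in control replicate 2 and mutant replicate 2, at 2.589 and 4.296 CPM summed over 4 genes, against 103.7 to 144.9 CPM in the other libraries. Each group thus had 1 such library, and Pcdh19 had 114.5 CPM in that control against 114.7 and 127.6 CPM in the others.

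**Figure D5:**
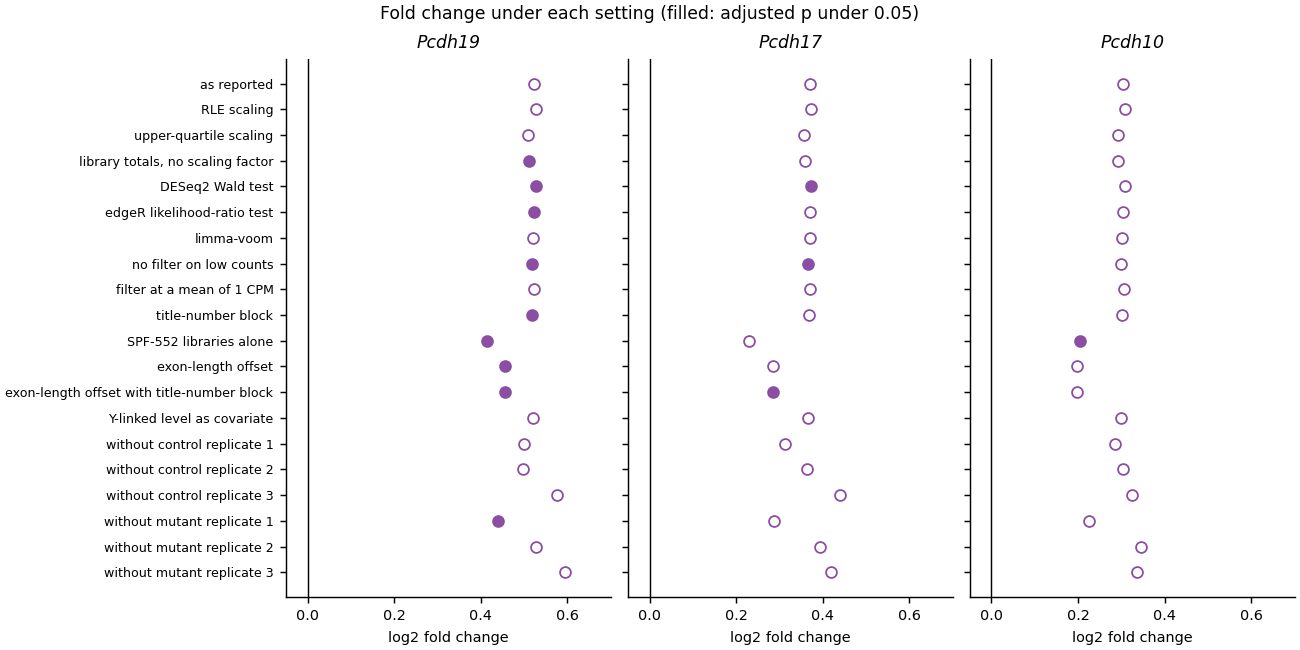
Log2 fold change of Pcdh19, Pcdh17 and Pcdh10 as reported and under 19 other settings; filled circles have an adjusted p under 0.05 in that setting. The values stay above 0 throughout, between 0.41 and 0.59 for Pcdh19, 0.23 and 0.44 for Pcdh17, and 0.20 and 0.35 for Pcdh10.

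The authors' deposited table, which lists 369 genes at an FDR under 0.1 with a likelihood-ratio score, holds 2 members. The authors' deposited table gives Pcdh19 a log2 fold change of 0.52 with an FDR of 0.000395 and Pcdh17 one of 0.37 with an FDR of 0.068. It compares the same 2 groups and is no independent evidence.

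Over the 6 libraries, the genes averaging 10 CPM or more whose log2 CPM was most like that of Pcdh19 were Acvr2b (Pearson r = 0.993), Dnmt3a (0.992), Zbtb10 (0.991), Gm13002 (0.990) and Plec (0.990), among 10172 genes. Within this ranking Pcdh17 was 31st (r = 0.97) and Pcdh10 was 50th (r = 0.96), while Pcdh7 (0.80), Pcdh18 (0.68), Pcdh1 (0.58), Pcdh9 (0.34), Pcdh11x (0.33) and Pcdh8 (-0.10) stood lower. These are descriptions over 6 libraries, whose values share 1 scaling per library and the difference between the groups.

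Markers of other cell types moved with the groups. Summed over 6 markers of cortical excitatory neurons the level was 1479 to 1545 CPM in controls and 1032 to 1258 CPM in the mutant-labelled libraries, and 3 of the 6 were lower at an FDR of 0.05 in edgeR's quasi-likelihood fit and 4 in DESeq2. For 12 markers of the ganglionic eminence and inhibitory neurons it was 838.6 to 972.2 and 1030 to 1169 CPM, for 7 Cajal-Retzius markers 386.3 to 398.6 and 437.8 to 590.0 CPM, and for 11 diencephalon markers 367.2 to 414.5 and 452.1 to 555.4 CPM, with 0 members of these 3 lists past an FDR of 0.05 in edgeR's quasi-likelihood fit and 7, 5 and 6 of them higher at an unadjusted p under 0.05. DESeq2 called 0, 2 and 2 of them, all higher. The sum of 5 intermediate progenitor markers was 522.3 to 549.3 CPM in controls and 385.2 to 415.0 CPM in the other group. Of these 5, 1 was lower at an FDR of 0.05 in edgeR's quasi-likelihood fit and 2 in DESeq2. The sum of 8 radial glia markers was 1997 to 2143 CPM in controls and 2242 to 2460 CPM in the other group. Of these 8, 0 passed an FDR of 0.05 in edgeR's quasi-likelihood fit or in DESeq2. At an unadjusted p under 0.05 in the former, 2 were higher. Their median deviation from the control mean, in log2 CPM, was 0.01, 0.21 and 0.31 in mutant replicates 1 to 3. No marker of these lists was at 0 in all libraries. Among mutant replicates 1 to 3 the Cajal-Retzius sum was 590.0, 496.1 and 437.8 CPM, in the order of Pcdh19. The median deviation of these 7 markers from their control mean, in log2 CPM, ran the other way, at 0.34, 0.42 and 0.54. The ganglionic eminence sum was 1030, 1109 and 1169 CPM and the diencephalon sum 452.1, 505.3 and 555.4 CPM. Both of these sums ran in the reverse order of Pcdh19. The cortical excitatory sum, at 1258, 1084 and 1032 CPM, ran in the order of Pcdh19 but below all controls. The intermediate progenitor sum (385.2, 415.0 and 402.3 CPM) and the radial glia sum (2244, 2242 and 2460 CPM) followed neither order. An order of 3 libraries is only a description. The part of these cell types in the levels of Pcdh19, Pcdh17 and Pcdh10 was not tested. Summed levels of endothelial, pericyte, meningeal and microglial markers overlapped between the groups.

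Partners and relatives of the family were examined as 8 lists with 69 genes, of which 67 were tested. None passed an FDR of 0.05 in edgeR's quasi-likelihood fit, 8 had an unadjusted p under 0.05 (5 higher and 3 lower), and DESeq2 called 2. Of all genes tested, 5.22% were higher and 4.38% lower at that level. Among 9 WAVE complex genes 0 were higher and 1 was lower at an unadjusted p under 0.05. This was Brk1, the smallest subunit, at 79.7, 69.72 and 64.98 CPM in controls and 50.37, 62.58 and 64.13 CPM in mutant replicates 1 to 3 (log2 fold change -0.28, adjusted p = 0.443 in edgeR's quasi-likelihood fit). Abi1, another subunit, had -0.09. Among 9 other intracellular partners, phosphatase 1 subunits included, 0 reached that level. Dab1 had a log2 fold change of -0.21 and Taok2, the kinase that acts with Pcdh8, one of 0.13. Without mutant replicate 1 Dab1 was lower, at -0.33 (adjusted p = 0.015 in edgeR's quasi-likelihood fit). In that setting 330 of 15446 genes passed an FDR of 0.05. Leaving out any other single library called 0 of the 67 related genes.

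Of 17 genes listed as classical cadherins, with Cdh13 among them, 2 were higher and 1 lower at an unadjusted p under 0.05. The list median was 0.00. Cdh6, a marker of cortical areas and of the striatum, had 30.86, 37.03 and 39.51 CPM in controls and 51.15, 46.83 and 42.23 CPM in mutant replicates 1 to 3 (log2 fold change 0.39, adjusted p = 0.269 in edgeR's quasi-likelihood fit). Cdh10 had 17.04, 18.69 and 17.85 CPM in controls and 14.69, 14.7 and 12.45 CPM in mutant replicates 1 to 3 (log2 fold change -0.36, adjusted p = 0.337 in edgeR's quasi-likelihood fit). The groups of both did not overlap, in opposite directions. Without mutant replicate 1 Cdh13 was lower, at -0.56 (adjusted p = 0.00238 in edgeR's quasi-likelihood fit), a setting in which 330 of 15446 genes passed.

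Of 10 Fat, Dachsous and Flamingo genes, the giant cadherins of planar polarity and growth control, 2 were higher at an unadjusted p under 0.05. The list median was 0.16. With a per-library correction for exon length it was 0.06, and in SPF-552 alone it was 0.05. On leaving out 1 library it ranged from 0.07 (without mutant replicate 1) to 0.25 (without mutant replicate 3). Fat1 had 125.4, 147.7 and 178.5 CPM in controls and 207.4, 215.7 and 181.6 CPM in mutant replicates 1 to 3, without overlap (log2 fold change 0.42, adjusted p = 0.23 in edgeR's quasi-likelihood fit). Fat4, with 0.32, overlapped. Among 7 tested catenins, the cytoplasmic anchors of classical cadherins, 1 was higher. This was Pkp4, at 72.98, 89.2 and 86.76 CPM in controls and 101.1, 108.9 and 107.5 CPM in mutant replicates 1 to 3 (log2 fold change 0.35, adjusted p = 0.19 in edgeR's quasi-likelihood fit), while Ctnnb1, beta-catenin, had -0.08. Without mutant replicate 1 Pkp4 passed the FDR, at 0.38 (adjusted p = 0.0293 in the same test), as did 330 of 15446 genes in all. The authors' deposited table gives Pkp4 an FDR of 0.0138 and Fat1 one of 0.0532.

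Of the 6 tested genes of the MEF2, FMRP and Mdm2 route, through which Pcdh10 has been linked to the removal of synaptic PSD-95, 0 had an unadjusted p under 0.05. The smallest p-values were those of Mef2c, with a log2 fold change of -0.27, and Mdm2, with -0.17. Mef2c had 118.0 CPM in mutant replicate 1 and 83.68 and 81.96 CPM in replicates 2 and 3, against 108.1 to 120.4 CPM in controls. Without mutant replicate 1 Mef2c was lower, with a log2 fold change of -0.46 (adjusted p = 0.00305 in edgeR's quasi-likelihood fit). In that setting 330 of 15446 genes passed. Mef2c passed as lower in 3 of 19 other settings in all. Among 7 genes of membrane proteolysis, the sheddase Adam10 and gamma-secretase, 1 was lower: Ncstn, with a log2 fold change of -0.17 (adjusted p = 0.52 in edgeR's quasi-likelihood fit). Psen2 had 0.29. The solitary protocadherins outside the delta group, Pcdh15 and Pcdh12, had 0.30 and 0.08; Pcdh15, known for its role in hair-cell tip links, had 6.019 to 6.147 CPM in controls and 8.03, 8.306 and 6.20 CPM in mutant replicates 1 to 3.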

How the data were processed

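The 6 RNA-seq libraries from embryonic forebrain, 3 of each Sap130 genotype in the labels, were made with a kit that marks no strand (TruSeq RNA v2, per the labels' protocols). As tools, the submitters' processing notes list edgeR 3.4.2, HTSeq 0.5.4p5 and TopHat2 2.0.9, and as build mm10 (GRCm38), with no roles. The authors deposited estimated counts per gene, not scaled between libraries; 22.7% to 24.9% of values are not whole, and no source used here names the tool that made them. The authors' deposited comparison table gives log2 fold changes, mean log2 CPM, a likelihood-ratio score, and the p-value with its FDR.

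Identifiers were matched without version to GENCODE M21 (GRCm38), with 99.39% matched. Counts were rounded and tested with edgeR 4.0.16 (R 4.3.3) after filterByExpr with a minimum count of 10 and total of 15, using TMM scaling, robust quasi-likelihood fit of mutant against control, and Benjamini-Hochberg adjustment over all genes at an FDR of 0.05. Per-library log2 values use a prior count of 2. Over all genes, log2 fold changes had a median standard error of 0.125, at a biological coefficient of variation of 12.3%. The fit was tested on simulated data. Replicates were numbered by accession order, which pairs no libraries. In each related list, members past the FDR were to be named, or else the 2 with the smallest p. One forebrain marker is not reported here. Members and lists were chosen with earlier results of these data known. Alternatives used DESeq2 1.42.0, limma 3.58.1, other scalings and filters, the title number as a block, an exon-length offset (lowess span 0.3) and a Y-linked covariate.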

Additional observations from a re-analysis of the deposited data

Results flagged for a closer look

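Pcdh20 moved in opposite directions under the 2 title numbers. Its log2 ratio of labelled mutant to control was 0.2327 between the SPF-539 libraries and -0.2835 within SPF-552, where both libraries labelled mutant lay below both controls. SPF-539 holds 1 library of each group, and the difference was not tested. An opposition of this kind, with both SPF-552 libraries labelled mutant on one side of both SPF-552 controls and the SPF-539 pair differing the other way, was seen in 20.8% of all genes tested. By the sign of the 2 ratios alone Pcdh9, Pcdh11x and Pcdh18 were also opposed, with SPF-552 libraries that overlapped between the groups.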

How the results depend on the processing

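The count of members past the threshold was 0 as reported and with RLE or upper-quartile scaling, limma-voom, a filter at a mean of 1 CPM and the Y-linked covariate. It was 1 with library totals, edgeR's likelihood-ratio test, an FDR threshold of 0.1, the title number as a replicate block and the exon-length offset, each time Pcdh19 (adjusted p = 0.0217 with the block in edgeR's quasi-likelihood fit). It was 2 with DESeq2, no filter and the offset with the block (Pcdh19 and Pcdh17), and 2 in SPF-552 alone (Pcdh19 and Pcdh10). Leaving out 1 library gave 0 to 1. The count over all genes was 21 as reported, 194 with DESeq2, 150 with the likelihood-ratio test, 11 with limma-voom or the Y-linked covariate, 130 without a filter, 56 at an FDR of 0.1, 116 with the replicate block, 564 in SPF-552 alone, 68 with the offset, 407 with the offset and block, and 3 to 330 on leaving out 1 library (330 without mutant replicate 1, at most 9 otherwise). The members' median of 0.13 was 0.0230 in SPF-552 alone and 0.0469 to 0.176 on leaving out 1 library. It was 0.0889 with the offset and 0.0884 with the offset and block. The cause of these differences was not tested.

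Of 190 values of single members under alternatives, 166 kept their sign and side of the threshold, 13 newly passed and 11 changed sign, all of the last within 0.1 of 0. In SPF-552 alone Pcdh9, Pcdh11x and Pcdh18 were at -0.0611, -0.0814 and -0.00446. Pcdh11x was at -0.0136 with the offset and -0.00754 with the offset and block. On leaving out 1 library Pcdh11x ranged from -0.0370 to 0.166, Pcdh8 from -0.0408 to 0.0102, Pcdh9 from -0.0987 to 0.138 and Pcdh1 from -0.00990 to 0.237. Among the 67 related genes 2 passed as higher with DESeq2 and 1 with the block, 1 higher and 5 lower in SPF-552 alone, 2 and 3 with the offset and block, and 1 and 3 without mutant replicate 1. Pkp4 was higher in all 5 of these settings, Mef2c, Cdh13 and Dab1 were lower in the last 3, and 0 passed in the other settings at this threshold. The exon-length offset assumes that any trend with length is technical. At 141 to 238 counts a library Pcdh20 had a standard error of 0.165, the largest of the members.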
